A study of Mus musculus with 2 samples.

Results

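A group of 9 transcription factor genes known from the thalamus and its neighbours in the diencephalon was examined in RNAseq libraries of the mouse ventral midbrain. The genes Tcf7l2, Lef1, Gbx2, Lhx2, Lhx9, Prox1, Foxp2, Zic1 and Pou4f1 were chosen by symbol, with earlier results of these data known. All 9 have a row among the 31252 gene rows of the count table. Ventral midbrain of 2-month-old mice, described as incipient congenic C57BL/6, was profiled in 2 libraries. The Ctrl-labelled library came from Slc6a3-Cre mice, in which Cre recombinase is made from the dopamine transporter gene, and the OE-labelled library from mice that carry Slc6a3-Cre together with CAG-S-COUP-TFII, an allele that makes COUP-TFII once Cre has acted on it. Cre from this driver acts in dopaminergic neurons, whereas the RNA came from the whole tissue with its other neurons and glia. The comparison addresses which genes differ in expression when COUP-TFII is elevated in those neurons. How many animals stood behind each library is not given in the sources used here.

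The thalamus relays sensory and motor signals to the cortex and lies just in front of and above the midbrain. During development its neurons acquire their identity under transcription factors that include the Wnt effector Tcf7l2 and the homeodomain proteins Gbx2, Lhx2 and Lhx9, and several of these genes stay active in the adult. Some of the 9 genes are also used elsewhere in the brain: Foxp2 and Pou4f1 in parts of the midbrain, Tcf7l2 in maturing oligodendrocytes, Lef1 in brain endothelium and Zic1 in cerebellar granule cells.

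The libraries held 16984336 counts (labelled Ctrl) and 21326632 counts (labelled OE), and 15246 genes averaged 10 counts or more. These are called the tested genes here, although a single library per group allows no test across mice. Each log2 fold change is the OE-labelled library over the Ctrl-labelled library after scaling, and its 95% interval covers counting error only, so that it compares the libraries and not the genotypes. Nr2f2, which encodes COUP-TFII and is the gene the allele overexpresses, had 637 counts in the Ctrl-labelled library and 377 in the OE-labelled library. Its log2 fold change was -1.07 (interval -1.26 to -0.88), which goes against the labels, so every direction below is that of the labels only. The samples are also labelled as dopaminergic neurons, but markers of oligodendrocytes summed to 20316 CPM (counts for each 1000000 in the library) in the Ctrl-labelled library and 17005 in the OE-labelled library. Markers of dopaminergic neurons summed to 1500 and 3567 CPM.

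Of the 9 transcription factors, 8 were lower in the OE-labelled library by more than log2 0.2, and 16.6% of all tested genes were. Pou4f1 was the 1 gene on the other side of that threshold, where 17.9% of tested genes lay. For 6 genes, Gbx2, Lhx2, Tcf7l2, Lhx9, Zic1 and Lef1, the difference was beyond log2 1 on the lower side, compared with 1.28% of tested genes. Counting intervals lay below 0 for 8 of the 9 genes (14.4% of tested genes) and above 0 for Pou4f1 (15.8% of tested genes). The 9 genes had a median log2 fold change of -2.02, and all tested genes one of 0.0046. Because the 9 genes were chosen with earlier results of these data known, these shares describe the group and are no test of it. All 9 genes passed the minimum of 10 counts, but Gbx2 did so only through the library in which it was high. In bulk tissue, fewer cells of a type and less RNA per cell cannot be told apart.

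**Figure D1:**
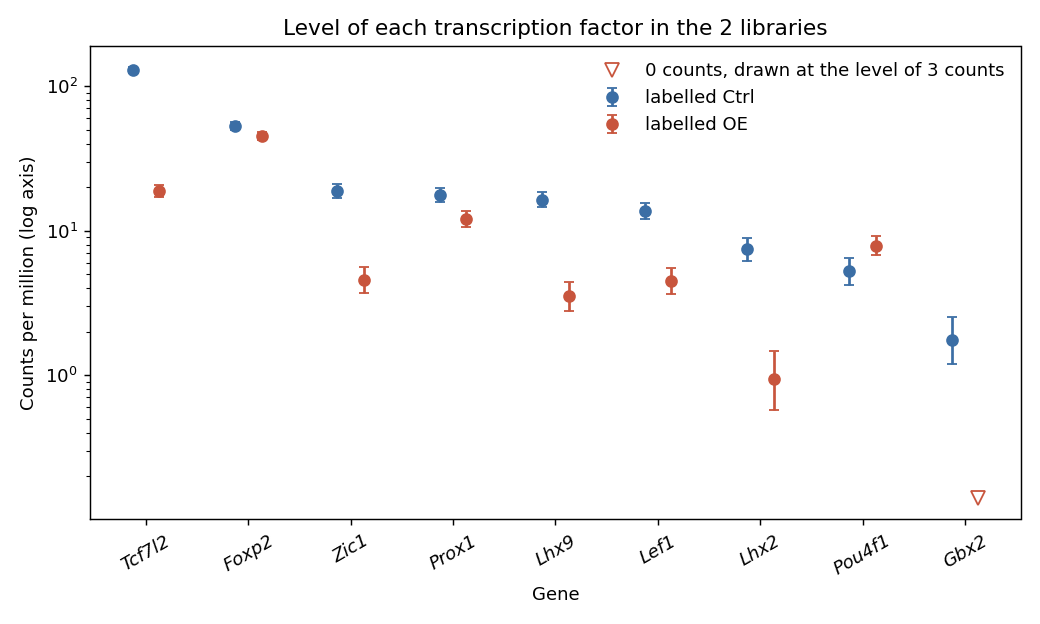
Level of each of the 9 genes, in CPM on a log axis, in the Ctrl-labelled library (blue) and the OE-labelled library (red). Bars are exact 95% Poisson intervals and cover counting error only, with 1 library per group. Tcf7l2 stood at 129 and 18.8 CPM, while Foxp2 stood at 53.2 and 45.3 CPM, and the open triangle marks Gbx2, with 0 counts in the OE-labelled library.

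Tcf7l2 and Lef1 encode HMG-box proteins of the TCF/LEF family, which bind DNA at Wnt target genes and recruit beta-catenin. Tcf7l2 lies on chromosome 19 (GRCm38, bases 55741820 to 55933654, plus strand) and had 2204 counts in the Ctrl-labelled library and 398 in the OE-labelled library. Its level was 129 CPM (124 to 135) and 18.8 CPM (17.0 to 20.7), a log2 fold change of -2.78 (interval -2.94 to -2.63). It was thus 6.87-fold lower in the OE-labelled library, and the narrow interval reflects the high count. Among the genes averaging at least 1000 counts, a limit chosen after the value was seen, Tcf7l2 had the lowest fold change. Lef1, on chromosome 3, had 233 and 95 counts (labelled Ctrl first, here and for the genes that follow). Its level was 13.6 and 4.48 CPM, a log2 fold change of -1.60 (interval -1.97 to -1.26). Lef1 was therefore lower by a smaller factor than its relative Tcf7l2, and the difference between their log2 fold changes was -1.17 (interval -1.56 to -0.78).

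Gbx2, Lhx2 and Lhx9 encode homeodomain proteins that act in young thalamic neurons, the latter pair with LIM domains through which they bind the cofactor Ldb1. Gbx2, on chromosome 1 (bases 89927956 to 89931179, minus strand), had 29.9 estimated counts in the Ctrl-labelled library and 0 in the OE-labelled library. Its level was 1.75 CPM (1.19 to 2.51) in the former, and 3 counts, set in place of 0, correspond to 0.141 CPM in the latter. The Poisson interval of the 0 counts reached 0.174 CPM. Against 3 counts, and with its count in the Ctrl-labelled library taken as exact, Gbx2 was 12.4-fold lower in the OE-labelled library. The 12.4-fold is not a lower limit, because the counting interval of the log2 fold change reached up to -3.25. A non-coding gene on the opposite strand that overlaps exons of Gbx2, D130058E05Rik, named after its values were seen, had 13 and 0 counts. The kit keeps strand information, but whether the counting used it is not given in the sources used here.

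Lhx2, on chromosome 2 (bases 38339281 to 38369733, plus strand), had 127 and 20 counts. Its level was 7.44 CPM (6.20 to 8.85) and 0.943 CPM (0.576 to 1.46), a log2 fold change of -2.95 (interval -3.74 to -2.29). Lhx9, on chromosome 1 (bases 138825186 to 138848577, minus strand), had 280 and 75 counts and a log2 fold change of -2.21 (interval -2.60 to -1.84). These LIM-homeodomain genes were both lower by more than 4-fold in the OE-labelled library. Their log2 fold changes differed by -0.76 with an interval of -1.62 to 0.036, which holds 0, so this depth did not separate them.

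Zic1 encodes a zinc finger protein of midline and dorsal brain regions. It lies on chromosome 9 (bases 91358058 to 91365810, minus strand) and had 319 and 97 counts. Its level was 18.7 CPM (16.7 to 20.8) and 4.57 CPM (3.71 to 5.58), a log2 fold change of -2.02 (interval -2.37 to -1.70). Zic4, a relative that overlaps Zic1 on the opposite strand by 3398 bases, of which 60 are exonic in both genes, had 80 and 23 counts. The log2 fold change of Zic4 was -2.09 (interval -2.85 to -1.43), so the neighbours stood at similar values.

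Prox1 and Foxp2 differed least on the lower side. Prox1, a prospero homeodomain gene of chromosome 1 that is best known from hippocampal granule cells and lymphatic endothelium, had 302 and 255 counts. Its level was 17.7 CPM (15.7 to 19.8) and 12.02 CPM (10.6 to 13.6), a log2 fold change of -0.56 (interval -0.80 to -0.31). Foxp2, a forkhead gene of chromosome 6 that is active in posterior thalamus and in many other regions including the midbrain, had 909 and 962 counts. Because the OE-labelled library was deeper, this equals 53.2 CPM (49.8 to 56.8) and 45.3 CPM (42.5 to 48.3), a log2 fold change of -0.23 (interval -0.36 to -0.099). Foxp2 lay just past log2 0.2 with an interval that also holds smaller differences, which placed it 2153rd from the lowest of the 15246 tested genes.

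Pou4f1, which encodes the POU homeodomain protein Brn3a of the habenula, the red nucleus and sensory neurons, went the other way. It lies on chromosome 14 (bases 104461676 to 104467999, minus strand) and had 89 and 167 counts. Its level was 5.21 CPM (4.19 to 6.41) and 7.87 CPM (6.72 to 9.16), a log2 fold change of 0.59 (interval 0.22 to 0.98). Pou4f1 was thus 1.51-fold higher in the OE-labelled library, which placed it 648th from the highest of the 15246 tested genes.

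**Figure D2:**
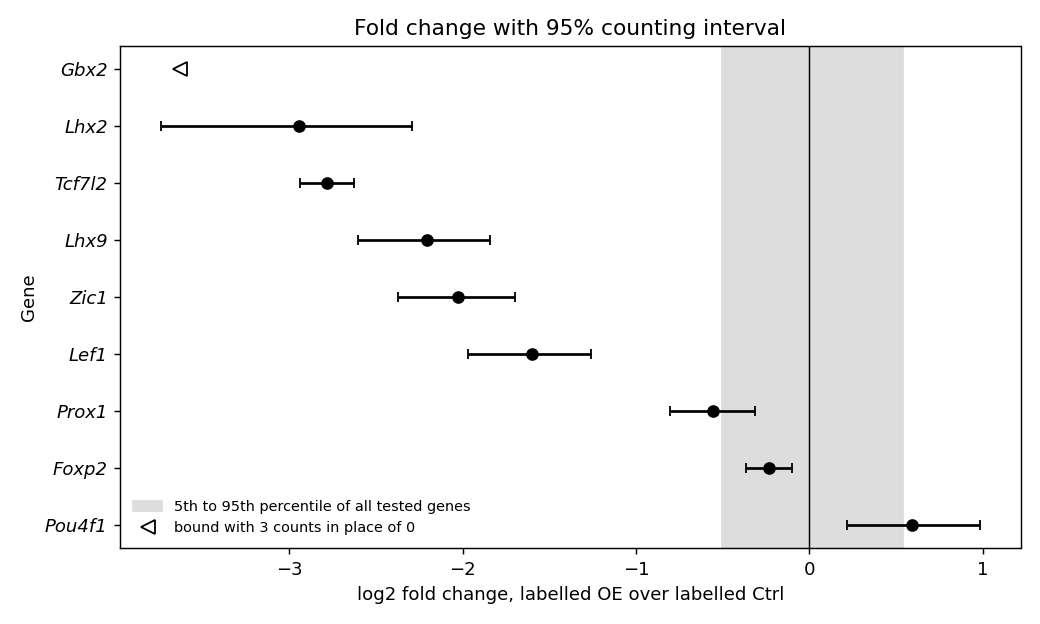
Log2 fold change of each gene, OE-labelled over Ctrl-labelled, with its 95% counting interval, over the range that holds the 5th to 95th percentile of all tested genes (grey, -0.50 to 0.54). The open triangle for Gbx2 is the value of -3.63 with 3 counts in place of 0, without its counting error. Apart from Gbx2, values run from -2.95 for Lhx2 to 0.59 for Pou4f1.

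**Figure D3:**
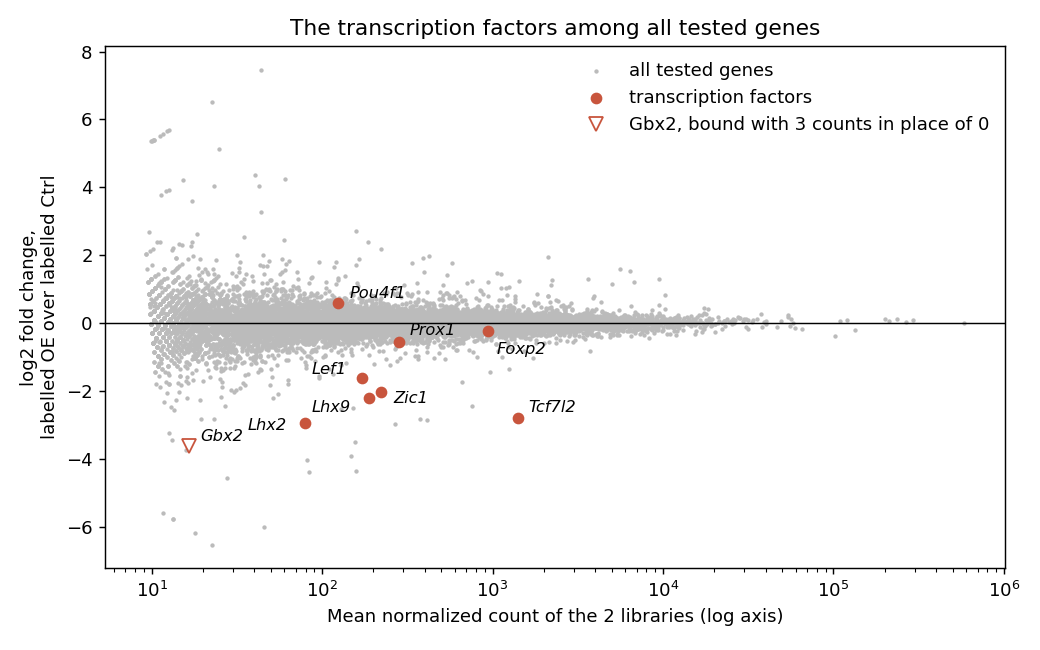
Log2 fold change, OE-labelled over Ctrl-labelled, against the mean normalized count on a log axis for the 15246 tested genes (grey) and the 9 transcription factors (red). Tcf7l2 stands apart from genes of similar abundance at -2.78, and Foxp2 at -0.23 lies within the cloud. Gbx2 is drawn at -3.63, its value with 3 counts in place of 0.

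A contrast between 2 genes within the same libraries does not depend on how the libraries are scaled. Of the 36 pairs among the 9 genes, 32 had an exact 95% interval of the difference in log2 fold change that excluded 0, and without Gbx2, which passed the minimum only through the library in which it was high, 24 of 28 did. These intervals cover counting error only, the pairs reuse the same genes, and the share among pairs of all tested genes was not computed. The other 4 pairs were Tcf7l2 with Lhx2, Lef1 with Zic1, Lhx2 with Lhx9, and Lhx9 with Zic1. The difference was 0.20 (interval -0.51 to 0.97) for Tcf7l2 minus Lhx2 and -0.18 (interval -0.70 to 0.33) for Lhx9 minus Zic1. Relative to Foxp2, the log2 fold change of Tcf7l2 stood at -2.55 (interval -2.76 to -2.35). Prox1 and Foxp2, both with small fold changes, still differed by -0.33 (interval -0.61 to -0.046).

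The make-up of the group therefore differed between the libraries. The 9 genes together had 4493 counts in the Ctrl-labelled library and 2069 in the OE-labelled library, a log2 fold change of -1.43 (interval -1.51 to -1.36). Tcf7l2 contributed 49.1% of these counts (95% Clopper-Pearson interval 47.6% to 50.5%) in the Ctrl-labelled library and 19.2% (17.6% to 21.0%) in the OE-labelled library. Foxp2 took up 20.2% (19.1% to 21.4%) and 46.5% (44.3% to 48.7%). Foxp2 thus replaced Tcf7l2 as the gene with the most counts, which are not corrected for transcript length. Prox1 went from 6.72% to 12.3% of the sum and Pou4f1 from 1.98% to 8.07%, while Lef1, at 5.19% and 4.59%, kept a share whose intervals overlapped.

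**Figure D4:**
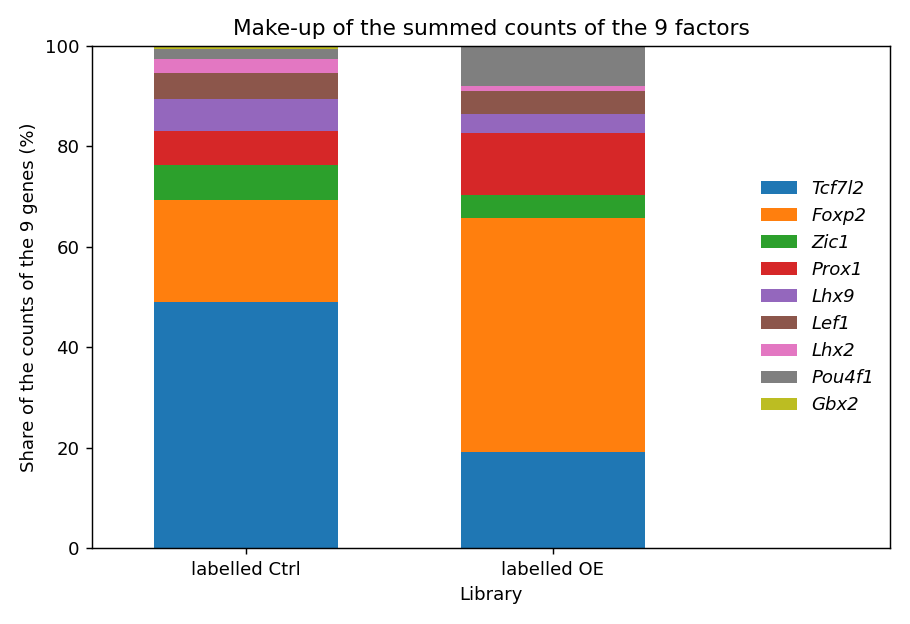
Share of each gene, in percent, in the summed counts of the 9 transcription factors, with 1 bar per library. Tcf7l2 (bottom) makes up 49.1% of the bar labelled Ctrl and 19.2% of the bar labelled OE, and Foxp2 20.2% and 46.5%.

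The order of the levels of the 9 genes was taken per length, as CPM per kilobase of the longest coding transcript. In the Ctrl-labelled library, Tcf7l2 came first with 34.7, followed by Foxp2 with 7.88, and both were separated from the next gene by their counting intervals. Lef1, Zic1, Lhx9, Lhx2 and Prox1 followed between 3.92 and 2.24, each with an interval that overlapped that of its neighbour in the order. Pou4f1 (1.17) and Gbx2 (0.820) came last with overlapping intervals. In the OE-labelled library the order was Foxp2 (6.71), Tcf7l2 (5.05), Pou4f1 (1.77), Prox1 (1.52), Lef1 (1.29), Zic1 (0.816), Lhx9 (0.716), Lhx2 (0.332) and Gbx2 (0). Intervals of neighbours overlapped there for Pou4f1 with Prox1, Prox1 with Lef1, and Zic1 with Lhx9. With the union of all exons as the length, Tcf7l2 remained first in the Ctrl-labelled library and Foxp2 in the OE-labelled library. In the former, Lef1 moved from place 3 to 7, Prox1 from 7 to 4, Zic1 from 4 to 2 and Foxp2 from 2 to 3. In the latter, Lef1 and Zic1 exchanged places 5 and 6.

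RefSeq lists 14 promoters for 8 of the 9 genes (GRCm38.p6), with Foxp2 not among them. Stretches of 3 of these promoters are shown, those of the genes with a large difference on the lower side, Tcf7l2 and Lhx2, and that of Pou4f1, the gene on the higher side. Each covers 150 bases, from position -200 to -51 relative to the transcription start, read 5′ to 3′ on the strand of the gene, with CpG dinucleotides in capitals. No exon of the GENCODE annotation overlaps them. They lie at chr19:55741610-55741759 (plus strand), chr2:38339081-38339230 (plus strand) and chr14:104468050-104468199 (minus strand), and hold 21, 15 and 31 CpG dinucleotides.
Tcf7l2: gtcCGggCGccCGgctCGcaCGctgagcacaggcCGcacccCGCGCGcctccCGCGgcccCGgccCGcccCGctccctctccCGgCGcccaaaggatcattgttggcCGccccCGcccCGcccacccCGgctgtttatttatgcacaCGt
Lhx2: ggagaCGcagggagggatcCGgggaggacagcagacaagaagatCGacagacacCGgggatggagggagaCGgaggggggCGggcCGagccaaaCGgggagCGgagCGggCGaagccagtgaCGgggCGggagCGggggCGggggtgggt
Pou4f1: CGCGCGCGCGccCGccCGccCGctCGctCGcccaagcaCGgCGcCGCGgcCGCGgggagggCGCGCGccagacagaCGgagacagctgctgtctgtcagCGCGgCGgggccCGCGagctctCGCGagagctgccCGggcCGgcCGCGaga
Over the 250 bases before the start, the ratio of observed to expected CpG was 0.97 for this Tcf7l2 promoter, 0.89 for Lhx2 and 1.24 for Pou4f1, while the median of all 32851 promoters was 0.37. Of the 14 promoters, 8 had a ratio over 0.6, a level that 34.0% of all promoters exceeded, and the lowest was 0.22 for Lhx9. All 4 promoters of Lef1 lay below that level, from 0.37 to 0.51. Searched on both strands of the same 250 bases, none of the 14 promoters held the TCF/LEF motifs CTTTGAT or CTTTGAA, the nuclear receptor half-site AGGTCA or the homeodomain motif TAATTA. These letters occurred in 3.21%, 4.46%, 14.0% and 4.84% of all promoters. With only 14 promoters, of which 4 belong to Lef1, finding none is not a result about these genes. The 14 promoters were also richer in G and C, with a median of 65.4% against 52.4% for all.

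Relatives of the 9 genes from the same families mostly differed less. Of 19 paralogs, 12 passed the minimum of 10 counts, with a median of -0.10 on the log2 scale, and 4 were lower and 3 higher by more than log2 0.2. Beside the counts of this and the following lists stand 16.6% of tested genes lower and 17.9% higher by that much. Zic4 (-2.09), of the family of Zic1, was among the paralogs beyond log2 1. The following relatives are named after their values were seen. Zic2, with 121 and 96 counts, stood at -0.64 (interval -1.05 to -0.25). The TCF/LEF relatives Tcf7 (59 and 66 counts) and Tcf7l1 (59 and 56 counts) had intervals that hold 0, and so did the forkhead relative Foxp1 (489 and 599 counts). The LIM-homeodomain gene Lhx5 had 81 and 160 counts and a log2 fold change of 0.67 (interval 0.27 to 1.07), on the other side of 0 from Lhx2 and Lhx9. The POU relative Pou4f2, with 15 and 32 counts, had an interval that holds 0 (-0.15 to 1.77).

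Levels of cofactors ranged from 445 and 437 CPM for Ctnnb1 down to 7.26 and 8.44 CPM for Lmo1. All 18 genes listed as partners of TCF/LEF or LIM-homeodomain proteins passed the minimum, with a median of 0.050 on the log2 scale, and 2 were lower and 5 higher by more than log2 0.2. Ctnnb1, which encodes beta-catenin, had 7598 and 9280 counts and a log2 fold change of -0.025 (interval -0.069 to 0.019). Ssbp2, a partner of the Ldb proteins, had 1759 and 1969 counts (-0.15, interval -0.24 to -0.057). Ldb2, named after its values were seen, had the lowest value of the list at -0.86 (interval -1.07 to -0.65), from 479 and 328 counts.

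Genes that respond to Wnt signalling in many tissues were taken as a further readout of the TCF/LEF branch. Of 12 such genes, 10 passed the minimum, and 6 were lower and 0 higher by more than log2 0.2, with a median of -0.24 and none beyond log2 1. Those with the most counts were Tnfrsf19, at 44.6 and 39.2 CPM (-0.19, interval -0.33 to -0.043), and Ccnd1, which encodes cyclin D1, at 36.2 and 35.9 CPM (-0.011, interval -0.17 to 0.14). Axin2, a feedback inhibitor of the pathway named after its values were seen, had 312 and 321 counts (-0.27, interval -0.50 to -0.043).

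Other transcription factors of the region lay on both sides of 0, beside 16.6% of tested genes lower and 17.9% higher by more than log2 0.2. Of 18 further thalamic and habenular factors, 15 passed the minimum, with a median of 0.12 on the log2 scale, and 3 were lower and 7 higher by more than log2 0.2. Rora, a nuclear receptor abundant in thalamic and cerebellar neurons, had 2070 and 1265 counts and was the 1 gene of this list beyond log2 1 (-1.02, interval -1.13 to -0.92). Nr2f1 (457 and 352 counts, -0.69, interval -0.89 to -0.49) and the nuclear receptor gene Rorb (664 and 535 counts, -0.62, interval -0.79 to -0.46), named after their values were seen, were the other genes lower by more than log2 0.2. Of the 7 higher genes, 3 had intervals above 0. Of 12 factors of the prethalamus, reticular nucleus and zona incerta, 8 passed, with a median of 0.064. Of these, 1 was lower and 2 were higher by more than log2 0.2, close to the shares of all tested genes. Those with the most counts were Meis2 (398 and 460 counts, -0.10) and Six3 (213 and 270 counts, 0.029), both with intervals that hold 0.

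Of 14 hypothalamic and mammillary factors, 7 passed the minimum and had a median of 0.26, with 1 lower and 5 higher by more than log2 0.2. The median was 0.70 over all genes with a count, and also with a minimum of 100 counts. Nkx2-1, which specifies ventral forebrain, had 27 and 96 counts (1.50, interval 0.89 to 2.19). All 16 midbrain and dopaminergic factors passed, with a median of 0.77, and 0 were lower and 11 higher by more than log2 0.2, while the other 5 lay within it. En1, a homeodomain gene that dopaminergic neurons need for survival, had 156 and 758 counts (1.96, interval 1.72 to 2.23). En2 (2.19), Pitx3 (2.00) and Foxa2 (1.40) were also beyond log2 1.

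**Figure D5:**
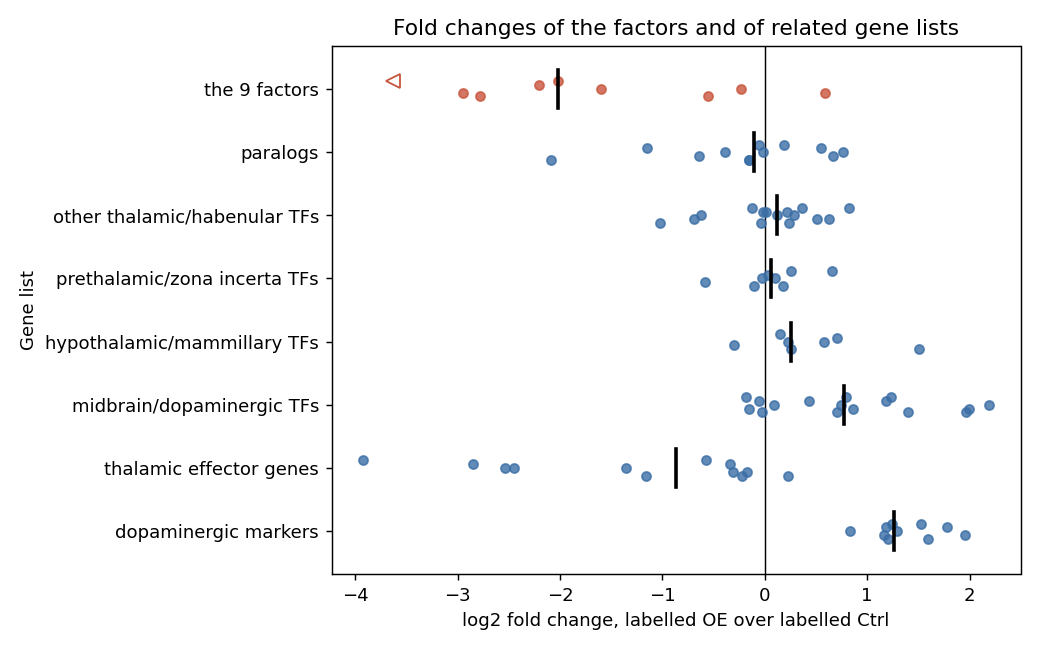
Log2 fold change, OE-labelled over Ctrl-labelled, of the tested genes in 8 lists, with 1 point per gene and a black line at the median. The 9 factors (red) have a median of -2.02, while midbrain and dopaminergic transcription factors have 0.77 and dopaminergic markers 1.26. The open triangle marks Gbx2 at its bound of -3.63.

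Markers of cells and regions differed between the libraries alongside the 9 genes. Of 12 thalamic effector genes, which encode proteins other than transcription factors, 10 were lower and 1 higher by more than log2 0.2, with a median of -0.87. Their summed level was 1522 CPM in the Ctrl-labelled library and 1155 in the OE-labelled library, and none was at 0. Tnnt1 (-3.93), Rgs16 (-2.85), Vipr2 (-2.54) and Prkcd (-2.45) had the largest differences. Of 6 genes of the habenula, the region in which Pou4f1 is best known, 5 passed the minimum, of which 1 was lower and 4 were higher by more than log2 0.2, with a median of 0.79. Their sum was 12.8 and 21.6 CPM, and Chrnb4, a nicotinic receptor subunit, had 19 and 49 counts (1.04, interval 0.26 to 1.90). The next 3 genes are named after their values were seen. Chrna3 alone made up 7.73 and 13.4 CPM of the sums. Gpr151, the lower gene (11 and 9 counts, -0.57, interval -2.05 to 0.81), and Gng8 (22 and 32 counts) had intervals that hold 0.

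All 10 dopaminergic markers were higher by more than log2 0.2, with a median of 1.26, none was at 0, and Th, the rate-limiting enzyme of dopamine synthesis, had 2499 and 9354 counts (1.59, interval 1.53 to 1.66). Chrna6 (1.95), Gch1 (1.78) and Slc18a2 (1.53) stood beside it. Of 10 oligodendrocyte markers, the cells in which Tcf7l2 is also known, 7 were lower and 0 higher by more than log2 0.2, with a median of -0.32, and Mbp, which encodes a myelin protein, stood at -0.20. Of 8 brain endothelial markers, the cells in which Lef1 is also known, 3 were lower and 0 higher, with a median of -0.12 and sums of 410 and 412 CPM. Slc2a1 (0.18) and Flt1 (-0.070) had the most counts of them. The part of these cells and regions in the differences of the 9 genes was not tested, and with 1 library per group the genotype cannot be told apart from any other difference between the tissue samples.

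For other cells and regions, the median was -0.060 for 8 astrocyte markers (Slc1a2 -0.17, Aldoc -0.023), -0.11 for 8 microglia markers (Csf1r -0.57) and 0.21 for 10 pan-neuronal markers (Snap25 0.055, Map2 -0.020). The 5 striatal markers with a row under the symbol searched had -0.13 (Pde10a -0.16, Rgs9 0.053). Among markers of cortex and hippocampus, where Prox1 and Lhx2 are also known, 5 of 8 passed with a median of -0.11, which was 0.51 over all genes with a count and -1.34 with a minimum of 100 counts, and Slc17a7 had 231 and 50 counts (-2.51). For cerebellar granule cells, where Zic1 is also known, 4 of 6 passed with a median of 0.21. Cbln1, the 1 gene of at least 100 counts, was at 1.05. Neurod1, named after its values were seen, went the other way (54 and 40 counts, -0.74, interval -1.37 to -0.13). Cbln3 (0.17) and Barhl1 (0.26) had intervals that hold 0. Fat2 was at 0 in both libraries and Gabra6 in the Ctrl-labelled library. Of 9 choroid plexus and ependymal markers, 7 passed with a median of -0.16 (-0.92 over all genes with a count). Of these, 3 were lower and 1 was higher by more than log2 0.2. Ttr had 426 and 67 counts (-2.97), and Ccdc153, which passed only through the Ctrl-labelled library, had 21 and 0 counts. Foxj1 (245 and 318 counts, 0.063) and Clic6 (62 and 90 counts, 0.22) lay on the other side, with intervals that hold 0.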

How the data were processed

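Stranded libraries of polyadenylated RNA were made from ventral midbrain with an Illumina TruSeq kit, and a sequencing company processed the reads with an in-house pipeline. What the authors deposited are expected counts from RSEM, which shares reads between transcripts they match, unscaled and with 95.4% whole values. The submitters' processing notes name mm10. The aligner and the annotation are not given in the sources used here. Each column was matched to its sample by the number in the sample title.

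Counts were scaled by TMM (edgeR 4.0.16, R 4.3.3; factors 1.01 and 0.995), and CPM are counts for each 1000000 of the scaled library. Before taking log2 ratios, 0.5 normalized counts were added as a pseudocount. Intervals (95%) were Clopper-Pearson on the split of the rounded counts, Poisson for levels, and exact conditional for pairs (scipy 1.17.1). With 1 library per group no p-value was computed. Sums of a list include genes under the minimum of 10 counts. A fold against 0 counts was set against 3 counts in that library. Positions and lengths came from GENCODE M21 (GRCm38), promoters from RefSeq. Simulated counts were used to test the scripts.

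The 9 genes, the lists and the tests were chosen with earlier results of these data known. Named from each list were up to 4 genes beyond log2 1, otherwise the most abundant pair, and some of the genes so named are not reported here. Alternatives were scaling by total counts, upper quartile, DESeq2 (version 1.42.0) size factors or pan-neuronal markers, a pseudocount of 5, and other count minimums. Nwd2, a habenula gene, and Drd1, a striatal marker, had no row under these symbols.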

Additional observations from a re-analysis of the deposited data

How the results depend on the processing

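No paired analysis was possible because there was 1 library a group, and no replicate could be left out. All of the 9 genes kept their direction under every scaling and under a pseudocount of 5, from -2.96 to -2.77 for Tcf7l2, from -0.41 to -0.22 for Foxp2 and from 0.42 to 0.61 for Pou4f1. The fitted value of Gbx2 depends on the pseudocount by construction and was -2.94 with a pseudocount of 5. The count of genes lower by more than log2 0.2 was 8 under every scaling, and 6 with genes of at least 100 counts, where Gbx2 and Lhx2 drop out. The median of the group ranged from -2.20 to -1.60. Nr2f2 ranged from -1.25 to -1.06. Scaling by pan-neuronal markers shifted the median of all tested genes to -0.17, and with it the medians of astrocyte (-0.24), brain endothelial (-0.30), cofactor (-0.13), oligodendrocyte (-0.50) and dopaminergic (1.09) genes. Under this scaling the cofactors, the other thalamic and habenular factors (-0.055) and the prethalamic factors (-0.11) changed sign, and the hypothalamic (0.085), cerebellar (0.041) and pan-neuronal (0.038) medians came close to 0. Medians of short lists also moved with the count minimum. With a minimum of 100 counts, the sign turned for other thalamic (-0.0070), prethalamic (-0.068) and striatal (0.053) genes, and the cerebellar median rested on 1 gene. Over all genes with a count, it turned for paralogs (0.034) and for cortical and hippocampal markers (0.51). Low counts limit Gbx2 and Lhx2 most.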
